A study of Mus musculus with 20 samples.

Results

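The chemokines and chemokine receptors of mouse visceral adipose tissue were taken by name from the array, as every gene whose symbol is Ccl, Cxcl, Cx3cl or Xcl (ligands) or Ccr, Cxcr, Cx3cr or Xcr (receptors) followed by its number. The array carries 54 such genes, 36 ligands and 18 receptors, of 37074 gene names. Of these, 42 had a probe well above background on 6 or more of the 20 arrays, 29 ligands and 13 receptors, out of 25618 tested names. The other 12 genes were not tested: Ccl20, Ccl22, Ccl26, Cxcl3, Cxcl5, Cxcl15, Cxcl17, Ccr1, Ccr4, Cxcr1, Cxcr2 and Xcr1. No probe of 6 of them was above background on any array.

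The tissue was epididymal fat of F3 male C57bl/6J mice, and each array holds RNA of 1 mouse. All lineages were bred for 3 generations on a growing diet with 1% of added oil, which was high-oleic sunflower oil in the control lineage and fish oil rich in eicosapentaenoic acid (EPA) in the omega 3 lineage. Ref mice (n = 6) came from the control lineage and ate a low-fat diet with 10% of its energy from fat. HFoleic mice (n = 6) came from the same lineage and ate a high-fat, high-sucrose diet with 45% of its energy from fat, and HFepa mice (n = 8) came from the omega 3 lineage and ate that high-fat diet. The diets were given for 17 weeks. No group of the omega 3 lineage on the low-fat diet is among the samples, so HFepa differs from Ref in both diet and lineage, whereas HFoleic differs from Ref in diet and from HFepa in lineage. Ref mice are the common partner of 2 of the 3 comparisons, which are therefore not independent of each other.

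Chemokines are small secreted or membrane-bound proteins that bind to the vessel wall and the matrix and guide leukocytes that carry the matching G protein-coupled receptor. Inflammatory ligands such as Ccl2 draw monocytes and other effector cells into a tissue, while homeostatic ligands such as Ccl19, Ccl21 and Cxcl13 place lymphocytes and dendritic cells within lymphoid structures. In obese adipose tissue the family is best known for the Ccl2 and Ccr2 axis, along which monocytes enter and become macrophages.

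Values are log2 of the median spot intensity after quantile normalisation, without background correction. A level of 1 probe can be compared between mice but not with the level of another probe. The scanner software called 66.1% to 71.9% of each array's spots well above background, no spot reached saturation, and the precision is limited by the number of arrays. Adiponectin, a defining product of adipocytes, lay between 17.75 and 18.26 on every array, and the adipocyte list as a whole between 16.47 and 17.12. Markers of testis or epididymis, which lie next to this fat pad, exceeded a mean log2 intensity of 8 in 5 arrays (Ref mice 3 and 6, HFoleic mouse 5, HFepa mice 2 and 4), so the counts of members at an adjusted p under 0.05 are also given without these arrays. Liver markers had list means of 7.6 to 10.2 in Ref, 7.62 to 11.5 in HFoleic (highest in mouse 6) and 8.15 to 10.65 in HFepa. No array was left out on their account.

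With HFoleic set against Ref, 18 of the 42 genes passed an adjusted p of 0.05 in limma (Benjamini-Hochberg over all 39390 tested probes), against 31.8% of all tested genes. Higher in HFoleic were 17 genes, which is 40.5% of those tested against a background of 15.2%, and they comprised 11 of 29 ligands and 6 of 13 receptors. Lower by its reported probe (the tested probe of highest mean) was 1 gene, Ccl25, against a background of 16.7%. Second probes of Cxcl11 and Cxcl10 also passed as lower and are given below. The median difference of the 42 genes was 0.16 on the log2 scale, beside -0.039 over all genes. No mouse of HFoleic overlapped any Ref mouse for 7 of the higher genes, among them Ccl2, Ccl6, Ccl9, Ccr2, Ccr3 and Ccr7, where the background of such genes is 6.92%, and for 0 genes did all HFoleic mice lie below Ref (background 7.09%). At an unadjusted p under 0.05 in limma were 18 genes with a positive difference (background 19.3%) and 3 with a negative one (background 22.9%). Without the 5 arrays that carried testis or epididymis markers, 11 of the 17 still passed and all 17 stayed positive, with a background of 7.67% called higher. Among the 6 that no longer passed were Ccl3, Ccl4, Ccl8, Cxcl16 and Xcl1. In RNA of whole tissue, fewer cells of a type and less RNA per cell cannot be told apart, and this holds for every difference below.

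**Figure D1:**
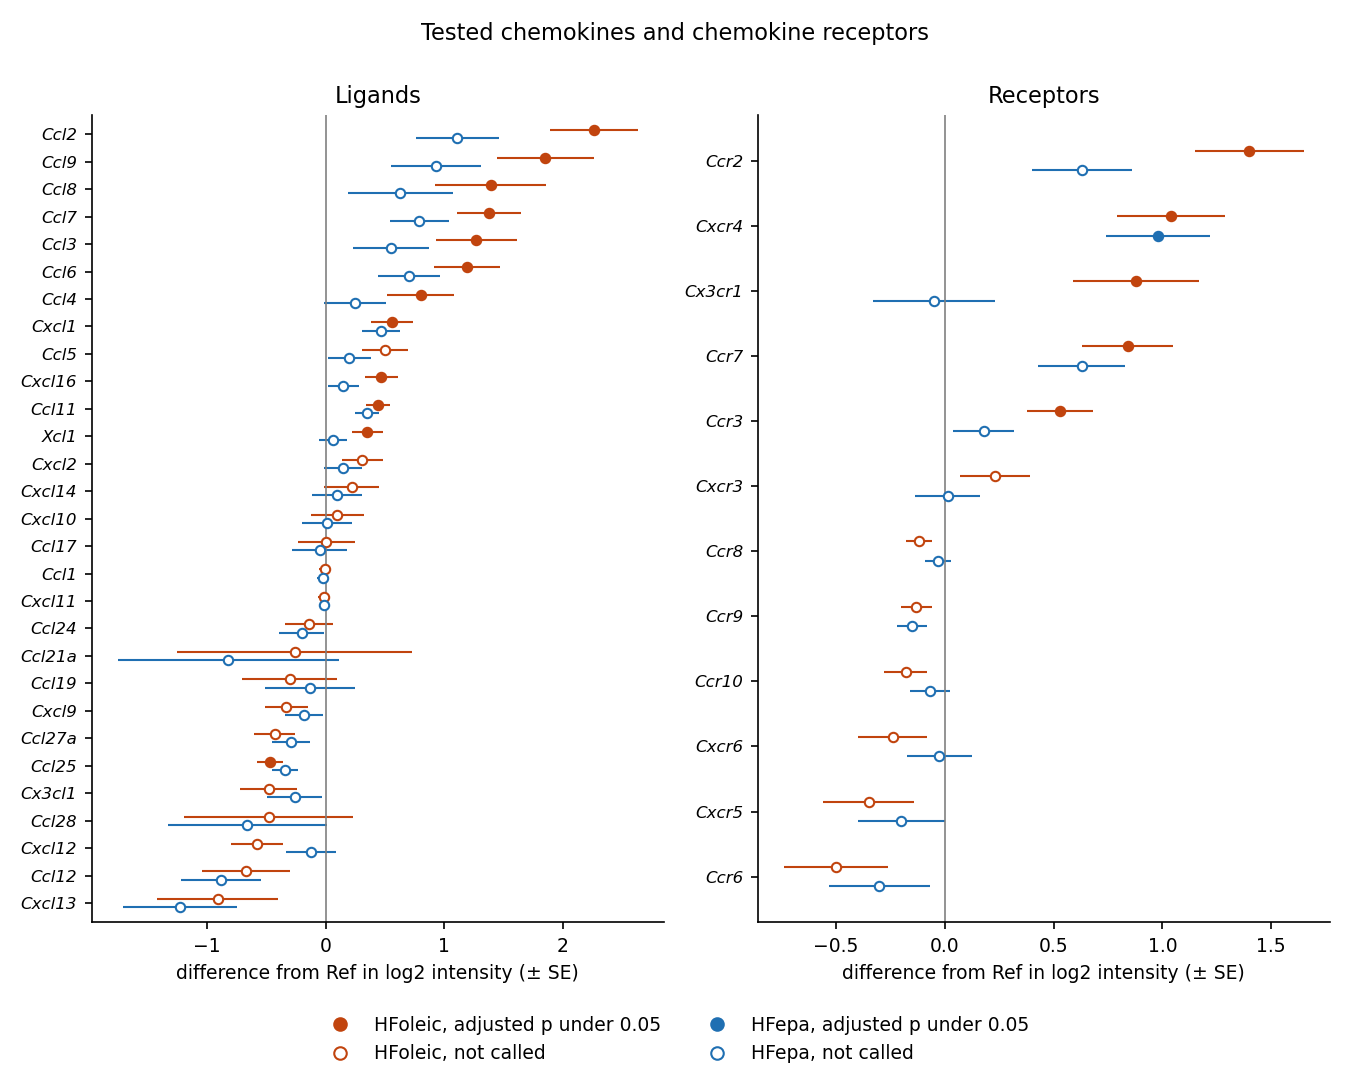
Difference from Ref in log2 intensity (horizontal axis, with the standard error) of the 29 tested ligands (left) and of 12 receptors (right), for HFoleic in orange and HFepa in blue. Filled points have an adjusted p under 0.05, which holds for Cxcr4 in both comparisons, and the largest difference is that of Ccl2 in HFoleic (2.26).

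Ligands of Ccr2, the receptor of classical monocytes, held the largest rise of the family. Ccl2, the monocyte chemoattractant protein, had the lowest, median and highest log2 intensities of 9.53, 10.11 and 10.76 in Ref, 11.45, 12.48 and 13.02 in HFoleic, and 9.60, 11.57 and 12.22 in HFepa. The lowest HFoleic mouse lay above the highest Ref mouse, and the HFepa mice spread from the Ref range into the HFoleic range. Ccl2 rose 4.80-fold in HFoleic (log2 difference 2.26, 95% interval 1.49 to 3.04, adjusted p = 0.000482 in limma), with within-slide differences of 1.87, 2.80 and 2.46. Ccl7, a second monocyte attractant encoded beside Ccl2, measured 8.46, 8.94 and 9.67 in Ref, 9.57, 10.39 and 10.92 in HFoleic, and 8.60, 10.06 and 10.20 in HFepa. Here only the lowest HFoleic mouse fell inside the Ref range. Ccl7 rose 2.6-fold (1.38, SE 0.27, adjusted p = 0.00121). Ccl12, the other Ccr2 ligand of the mouse, went the opposite way without passing: its median was 7.50 in Ref, 6.86 in HFoleic and 6.59 in HFepa, a difference of -0.67 in HFoleic (adjusted p = 0.179 in limma).

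Of Ccl3, Ccl4, Ccl5, Ccl6 and Ccl9, inflammatory ligands encoded side by side, 4 of 5 rose and none fell. Ccl9, a Ccr1 ligand made by myeloid cells, was at 11.57, 12.03 and 12.30 in Ref, 12.67, 14.06 and 14.53 in HFoleic, and 11.94, 12.58 and 14.71 in HFepa. Ref and HFoleic did not overlap, and the brightest single mouse of all was an HFepa mouse. Its rise was 3.59-fold (1.85, SE 0.41, adjusted p = 0.00244 in limma). Ccl6, a related Ccr1 ligand specific to rodents, was at 13.31, 13.95 and 14.18 in Ref, 14.22, 15.22 and 15.47 in HFoleic, and 13.69, 14.41 and 15.63 in HFepa. Again every HFoleic mouse was above every Ref mouse, though by a narrow margin at HFoleic mouse 1. Ccl6 rose 2.29-fold (1.19, SE 0.28, adjusted p = 0.00344 in limma).

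Ccl3 and Ccl4, the macrophage inflammatory proteins that activated macrophages and lymphocytes release, lay near the lower end of the scale. Ccl3 gave 5.75, 5.83 and 6.85 in Ref, 6.34, 7.2 and 7.94 in HFoleic, and 5.75, 6.26 and 8.09 in HFepa. The Ref maximum belongs to 1 mouse, Ref mouse 5, whose next neighbour was at 5.88. Ccl3 rose 2.42-fold (1.27, SE 0.34, adjusted p = 0.00752), and its call was lost without the 5 arrays named above (adjusted p = 0.0625 in limma). Over the alternative fits with no single mouse left out, the Ccl3 difference ran from 1.01 to 1.99. Ccl4 rose 1.74-fold (0.80, SE 0.28, adjusted p = 0.0333), with a second probe in the same direction that did not pass (0.66, adjusted p = 0.0618 in limma). The call of Ccl4 was also lost when any 1 of Ref mice 2, 3, 6 and 7 or HFoleic mice 4 and 6 was left out, with adjusted p up to 0.09. Ccl5, which attracts T cells, was at 11.08, 11.41 and 11.74 in Ref, 11.60, 11.89 and 12.23 in HFoleic, and 11.01, 11.61 and 12.32 in HFepa. The HFoleic mice lay above most Ref mice, but the difference of 0.50 (95% interval 0.098 to 0.90) had an adjusted p of 0.0546 and was not called. It passed in 4 of the fits with 1 mouse left out (HFoleic mouse 1, Ref mouse 5, HFepa mouse 3 or 4, adjusted p 0.0309 to 0.043).

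**Figure D2:**
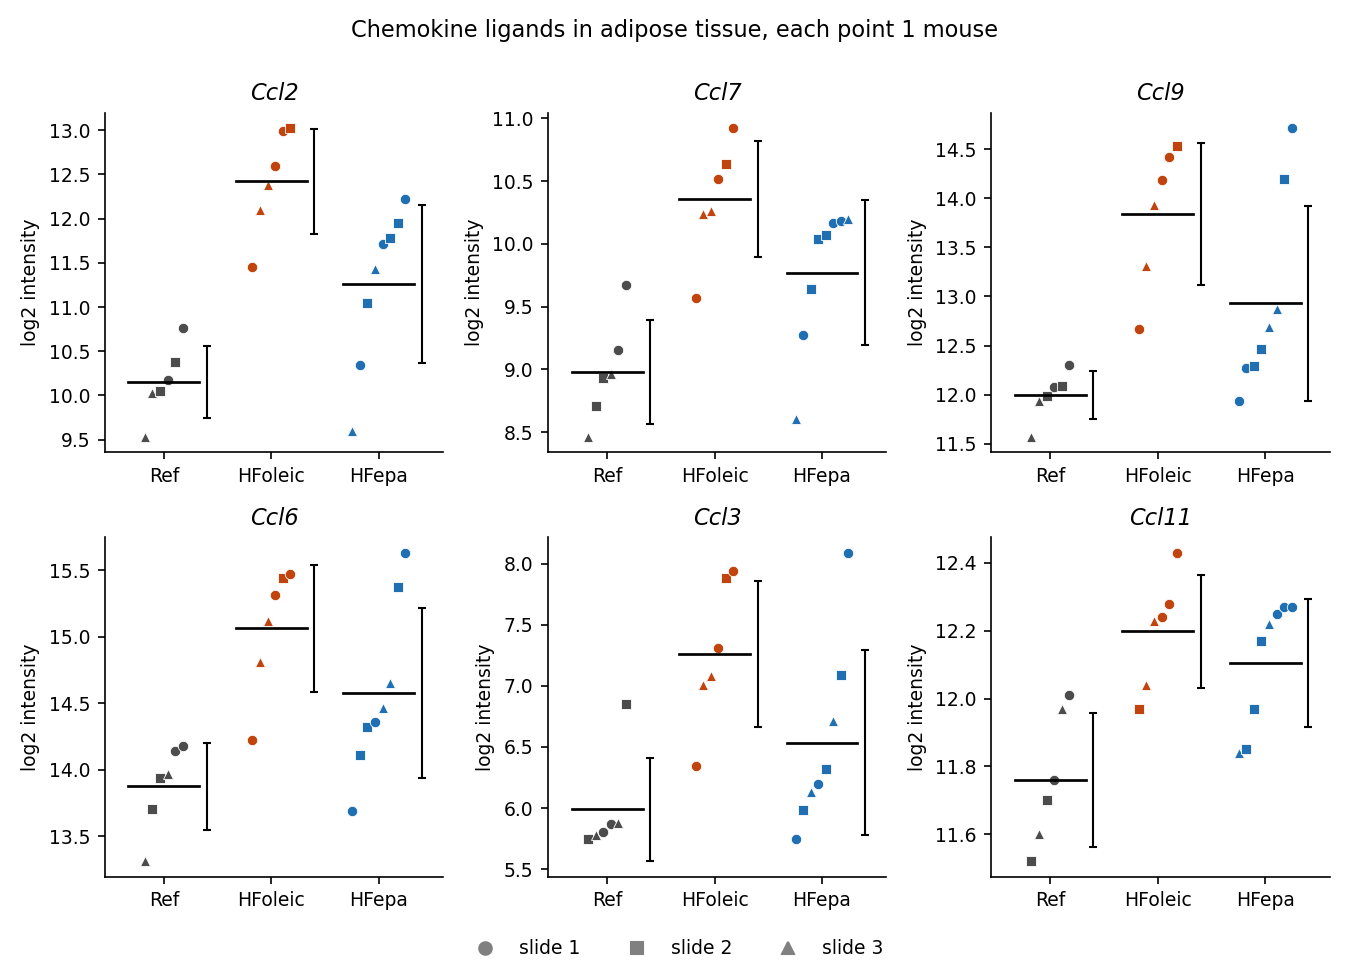
Log2 intensity (vertical axis) of 6 ligands in each mouse, by group, with the symbol giving the slide, the line the mean and the bar the SD. Ccl2, Ccl9 and Ccl6 of HFoleic lie wholly above Ref, and HFepa runs from the Ref range up to 12.22 for Ccl2 and 14.71 for Ccl9.

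Of the 2 tested ligands of Ccr3, the eosinophil receptor, the eotaxin Ccl11 rose and Ccl24 did not pass (-0.14, adjusted p = 0.649). Ccl11, which stromal cells of fat produce, was at 11.52, 11.73 and 12.01 in Ref, 11.97, 12.23 and 12.43 in HFoleic, and 11.84, 12.19 and 12.27 in HFepa. The groups touched at 1 HFoleic mouse only, and the HFepa mice sat close to HFoleic. The rise of Ccl11 was small but even over the mice, at 1.36-fold (0.44, SE 0.10, adjusted p = 0.00378 in limma), and it passed with every mouse left out in turn. Ccl8, a ligand of Ccr8 in the mouse, had the widest spread of the genes that rose, at 9.01, 9.99 and 10.89 in Ref, 9.61, 11.53 and 12.45 in HFoleic, and 8.61, 10.79 and 11.77 in HFepa. Its rise was 2.62-fold (1.39, SE 0.47, adjusted p = 0.0304), but the difference was 0.14 on slide 1 against 2.45 and 2.39 on the other slides. The call of Ccl8 was lost when any 1 of 6 mice (Ref mice 4, 6 and 7, HFoleic mice 4, 5 and 8) was left out (adjusted p 0.05 to 0.0815). Ccl1, the other Ccr8 ligand, was flat (-0.0064, SE 0.05), as was the Ccr4 ligand Ccl17 (0.0051, SE 0.24).

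Among the CXC, CX3C and XC ligands, 3 of the 11 tested rose. Cxcl1, which attracts neutrophils through Cxcr2, was at 7.97, 8.38 and 8.91 in Ref, 8.50, 9.08 and 9.45 in HFoleic, and 8.48, 9.01 and 9.12 in HFepa. The lower HFoleic mice lay within the Ref range. Cxcl1 rose 1.47-fold (0.56, SE 0.18, adjusted p = 0.0201), and lost its call without HFoleic mouse 6 (0.0564) or Ref mouse 6 (0.054). Cxcl16, a membrane-bound ligand of Cxcr6 that also takes up oxidised lipoprotein, was at 8.47, 8.77 and 9.04 in Ref, 8.84, 9.29 and 9.50 in HFoleic, and 8.52, 8.99 and 9.34 in HFepa. Ref and HFoleic overlapped only between the upper end of Ref and the lower end of HFoleic. It rose 1.39-fold by the reported probe (0.47, SE 0.14, adjusted p = 0.0126) and 1.62-fold by a second one (0.70, SE 0.16, adjusted p = 0.00366 in limma). Xcl1, made by natural killer and T cells, passed narrowly at 0.35 (SE 0.13, adjusted p = 0.041 in limma), and was the least stable of the genes that rose, since it differed by -0.024 on slide 2, and lost its call in 8 of the fits with 1 mouse left out.

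The ligands of Cxcr3, which interferons induce and which attract effector T cells, did not pass by their reported probes: Cxcl9 differed by -0.33 (adjusted p = 0.164), Cxcl10 by 0.10 (0.767) and Cxcl11 by -0.017 (0.82). The reported Cxcl11 probe cannot be taken as a reading of Cxcl11 alone. Second probes of Cxcl10 and Cxcl11 passed as lower, and all are described below. The ligands of lymphoid structures did not pass either. Ccl19, a Ccr7 ligand, was at 7.70, 8.90 and 9.56 in Ref, 7.92, 8.64 and 8.84 in HFoleic, and 7.94, 8.24 and 10.18 in HFepa, a difference of -0.30 (SE 0.40) in HFoleic. Cxcl13, the B cell attractant that binds Cxcr5, was at 6.13, 6.81 and 9.41 in Ref, 5.70, 6.68 and 7.03 in HFoleic, and 5.43, 6.05 and 7.41 in HFepa. Its highest values belong to Ref mice 3 and 4 (9.41 and 9.11), which also had the highest B cell markers (7.76 and 8.16, at most 7.51 in the other 18 mice). The Cxcl13 difference was -0.91 (SE 0.51, adjusted p = 0.193), and the part of B cells in it was not tested. Ccl21a ranged from 7.30 to 14.20 within HFepa alone, and its probe also covers near-identical gene copies (Gm10591, Gm13304 and Gm1987), so its value cannot be given to 1 gene.

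Cx3cl1, the membrane-bound fractalkine of endothelium and adipocytes, was at 9.28, 10.04 and 10.90 in Ref, 9.35, 9.51 and 10.21 in HFoleic, and 9.27, 9.79 and 10.52 in HFepa. Its difference of -0.48 (SE 0.24) in HFoleic had an adjusted p of 0.149, and of 0.0454 without Ref mouse 7. Ccl25, the Ccr9 ligand of thymus and gut, was the 1 gene of the family that fell by its reported probe. It was at 8.78, 9.01 and 9.25 in Ref, 8.26, 8.53 and 8.86 in HFoleic, and 8.39, 8.71 and 8.94 in HFepa. The HFoleic mice lay below Ref apart from the highest, and HFepa lay between. Ccl25 fell by 0.47 on the log2 scale (SE 0.11, adjusted p = 0.00404 in limma). Of its other probes 1 passed in the same direction (-0.25, adjusted p = 0.00786) and 1 did not (-0.057, 0.624). The remaining ligands did not pass: the skin chemokine Ccl27a differed by -0.43 (adjusted p = 0.0555, by a probe that also covers copies of the gene), Ccl28 by -0.48, Cxcl14 by 0.22 and the neutrophil attractant Cxcl2, above background in 1 of 6 Ref and 5 of 6 HFoleic mice, by 0.31.

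Among the receptors, 6 of 13 rose and none fell. Ccr2, which brings monocytes out of the marrow and into tissue along Ccl2, was at 9, 9.41 and 9.91 in Ref, 10.46, 10.72 and 11.26 in HFoleic, and 9.09, 10.03 and 10.90 in HFepa. A clear gap separated HFoleic from Ref, and HFepa mice lay below it, in it and above it. Ccr2 rose 2.63-fold (1.40, SE 0.25, adjusted p = 0.000704 in limma).

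Cxcr4, the receptor of Cxcl12 that retains leukocytes and progenitors in tissue, was at 6.31, 6.67 and 7.41 in Ref, 7.01, 7.94 and 8.26 in HFoleic, and 7.06, 7.62 and 8.59 in HFepa. Both high-fat groups overlapped Ref only at their low ends. Cxcr4 rose 2.06-fold in HFoleic (1.04, SE 0.25, adjusted p = 0.0043 in limma). A second Cxcr4 probe was well above background in 0 of 6 Ref, 6 of 6 HFoleic and 7 of 8 HFepa mice, so its Ref level is only a bound and no fold is given for it. Ccr7, which takes dendritic cells to lymph nodes, was at 7.37, 7.89 and 8.28 in Ref, 8.47, 8.68 and 9.09 in HFoleic, and 7.77, 8.57 and 9.23 in HFepa. Ref and HFoleic did not overlap, and the HFepa median was close to that of HFoleic. Ccr7 rose 1.79-fold (0.84, SE 0.21, adjusted p = 0.0058 in limma), and its second probe also passed (0.46, adjusted p = 0.0364).

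Cx3cr1, the fractalkine receptor of patrolling monocytes and tissue macrophages, was at 6.96, 7.48 and 8.25 in Ref, 7.52, 8.54 and 9.08 in HFoleic, and 6.83, 7.38 and 8.48 in HFepa. Most HFoleic mice lay above the Ref range, and the HFepa median lay at the Ref median. Cx3cr1 rose 1.84-fold (0.88, SE 0.29, adjusted p = 0.0286 in limma), with a second probe at 0.67 (SE 0.14, adjusted p = 0.00206). The call of the reported probe was lost when any 1 of Ref mice 2 and 4 or HFoleic mice 4, 5 and 6 was left out (adjusted p 0.056 to 0.074). Ccr3, the eotaxin receptor of eosinophils, was dim, at 5.63, 5.67 and 5.96 in Ref, 6.04, 6.17 and 6.76 in HFoleic, and 5.56, 5.86 and 6.63 in HFepa. Even so, HFoleic did not overlap Ref, and Ccr3 rose 1.44-fold (0.53, SE 0.15, adjusted p = 0.0112 in limma). Its call did not hold under median centring (0.058). Over the alternative fits with no single mouse left out, the Ccr3 difference ran from 0.39 to 1.07.

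The other 7 receptors did not pass. Cxcr6, the Cxcl16 receptor of resident T cells, was at 8.46, 8.74 and 9.16 in Ref, 8.08, 8.57 and 8.89 in HFoleic, and 8.34, 8.70 and 9.27 in HFepa (HFoleic minus Ref -0.24, SE 0.16, adjusted p = 0.29). Cxcr5, the follicular receptor of B cells, was at 5.62, 6.14 and 7.26 in Ref, 5.36, 6.04 and 6.19 in HFoleic, and 5.79, 6.17 and 6.31 in HFepa (-0.35, SE 0.21, adjusted p = 0.221). Its highest values, like those of Ccr6 (7.29 and 7.81, at most 7.03 elsewhere), were again in Ref mice 3 and 4. Cxcr3, the effector T cell receptor, differed by 0.23 (SE 0.16, adjusted p = 0.281) and Ccr6 by -0.50 (SE 0.24, adjusted p = 0.125 in limma). Ccr8, Ccr9 and Ccr10 differed by -0.12, -0.13 and -0.18, with adjusted p from 0.173 to 0.186.

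**Figure D3:**
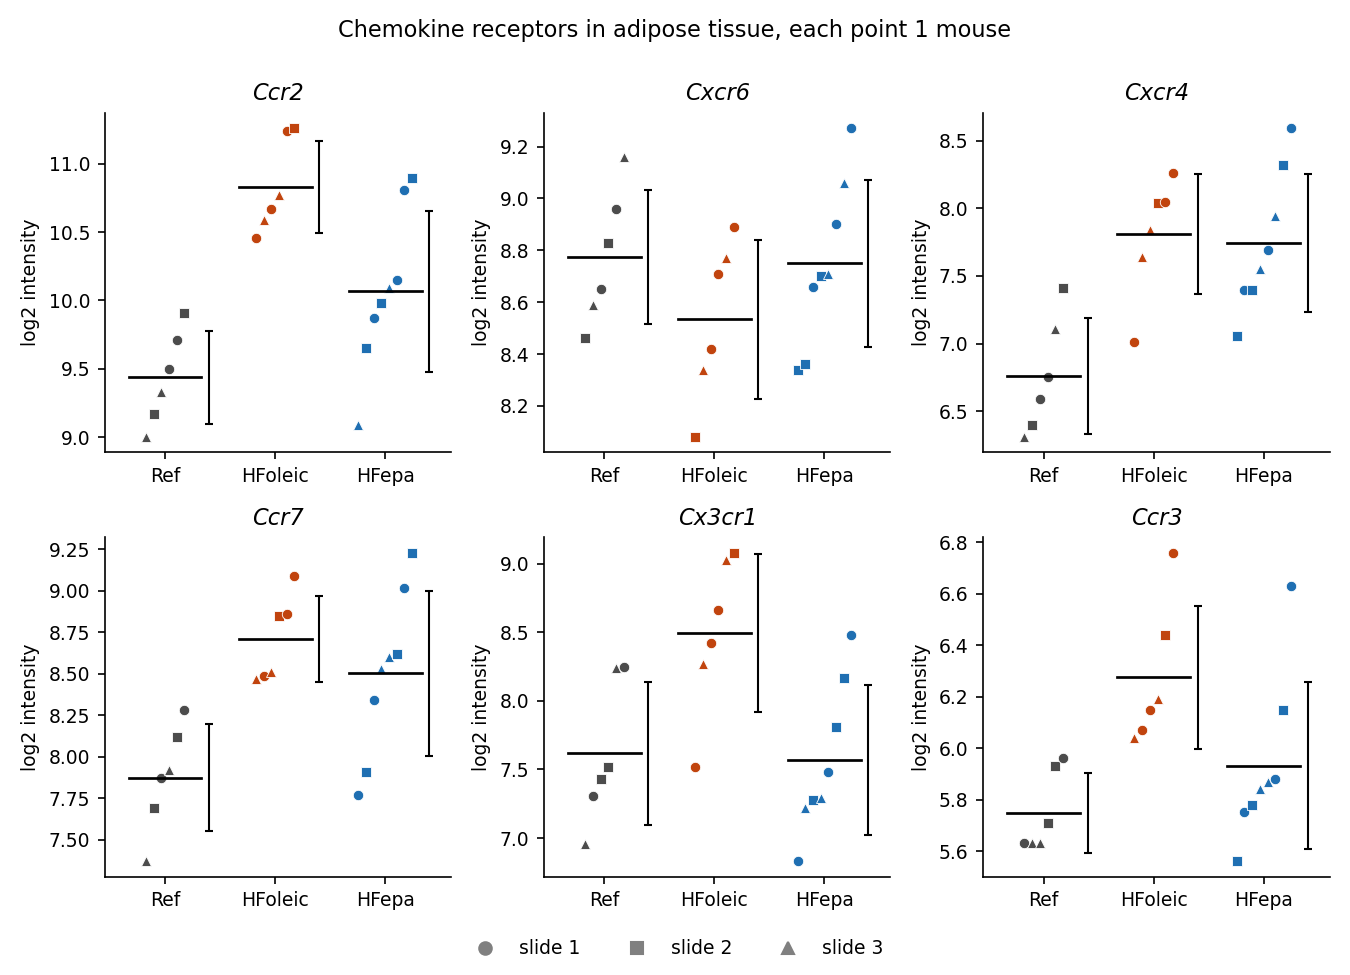
Log2 intensity (vertical axis) of 6 receptors in each mouse, by group, with the symbol giving the slide, the line the mean and the bar the SD. Ccr2, Ccr7 and Ccr3 of HFoleic lie above every Ref mouse, and Cxcr6, which was not called, overlaps in all groups.

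Ligand and receptor pairs can be read side by side, each from its own probe. Ccl2 and Ccr2 both rose in HFoleic. Cxcl16 rose while its receptor Cxcr6 did not pass. Ccr7 rose while its ligand Ccl19 had a negative difference that did not pass, and Cx3cr1 rose while Cx3cl1 had a negative difference that did not pass. Neither Cxcl13 nor Cxcr5 passed.

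Many of these genes are neighbours in the genome, and the coordinates here are those of the probes in the deposited files, on mm9. The probes of Ccl2, Ccl7, Ccl11, Ccl12, Ccl8 and Ccl1 lie on chr11:81850650-81990510, and 4 of these 6 rose. Those of Ccl5, Ccl9, Ccl6, Ccl3 and Ccl4 lie on chr11:83339296-83478111, and 4 of 5 rose. In the receptor cluster on chromosome 9, Ccr3 and Ccr2 rose while Ccr9 and Cxcr6 did not pass. Of the Cxcl9, Cxcl10 and Cxcl11 group on chr5:92752191-92788699 none of 3 rose, as did none of 3 on chromosome 4 (Ccl27a, Ccl21a and Ccl19). On chromosome 8, 0 of 2 tested genes rose (Cx3cl1 and Ccl17), and of Cxcl1 and Cxcl2 on chromosome 5 it was 1 of 2. Called higher in HFoleic were 15.2% of all tested genes and 40.5% of the family. With so few genes in each group these counts are a description.

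Promoter windows of 250 bases before the start were available from RefSeq (GRCm38.p6) for 39 of the 54 genes, and for 10 of the 17 that rose. They were searched on both strands for the kappaB consensus, bound by the NF-kappaB family, for TATAAA, the TATA box, and for GAGGAAGT, a form of the site of the myeloid factor PU.1. The kappaB consensus stood in 3 of the 10 (Cxcl1, Ccl9 and Ccr3), against 7.25% of all 32851 windows. TATAAA stood in 3 (Ccl8, Ccl9 and Cxcr4), against 12.4%, and GAGGAAGT in 0, against 2.44%. Of the 30 tested genes with a window, the kappaB consensus stood in 7, TATAAA in 8 and GAGGAAGT in 1. Genes that were not called also held the kappaB consensus (such as Cxcl2 and Cxcl10) or TATAAA (such as Cxcl9 and Cxcl13). The motifs are thus not particular to the genes that rose. With 10 windows for those genes the counts are a description, and a match is not a bound site. The windows of these 5 genes are shown 5′ to 3′ on the strand of the gene, because they are the promoters of genes that rose and hold a searched motif, which is in capitals.
Cxcl1, chr5:90890995-90891244, plus strand: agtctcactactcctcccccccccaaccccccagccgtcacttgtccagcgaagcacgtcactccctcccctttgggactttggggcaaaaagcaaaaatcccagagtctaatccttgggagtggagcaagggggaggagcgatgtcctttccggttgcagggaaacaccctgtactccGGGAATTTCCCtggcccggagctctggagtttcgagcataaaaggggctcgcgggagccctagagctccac
Ccl9, chr11:83578637-83578886, minus strand: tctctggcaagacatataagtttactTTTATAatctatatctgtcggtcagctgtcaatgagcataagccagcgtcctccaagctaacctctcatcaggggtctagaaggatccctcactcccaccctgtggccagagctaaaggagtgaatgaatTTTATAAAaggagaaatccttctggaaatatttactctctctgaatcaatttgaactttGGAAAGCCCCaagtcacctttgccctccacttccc
Ccl8, chr11:82114935-82115184, plus strand: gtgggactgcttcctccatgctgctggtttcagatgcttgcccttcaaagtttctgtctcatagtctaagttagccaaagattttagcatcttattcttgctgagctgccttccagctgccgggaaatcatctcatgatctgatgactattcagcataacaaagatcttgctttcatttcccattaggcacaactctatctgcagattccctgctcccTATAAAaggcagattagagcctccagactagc
Ccr3, chr9:124021721-124021970, plus strand: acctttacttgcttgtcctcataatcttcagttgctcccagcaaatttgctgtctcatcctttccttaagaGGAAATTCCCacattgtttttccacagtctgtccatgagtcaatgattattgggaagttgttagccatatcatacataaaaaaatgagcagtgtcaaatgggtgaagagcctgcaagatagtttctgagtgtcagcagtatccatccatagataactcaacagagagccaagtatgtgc
Cxcr4, chr1:128592300-128592549, minus strand: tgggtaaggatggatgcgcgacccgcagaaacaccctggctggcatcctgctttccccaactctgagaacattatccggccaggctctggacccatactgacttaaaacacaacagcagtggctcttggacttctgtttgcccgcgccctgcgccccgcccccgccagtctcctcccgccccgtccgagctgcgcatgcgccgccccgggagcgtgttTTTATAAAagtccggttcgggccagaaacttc
In the Cxcl1 window the consensus lay 70 bases before the start and read on both strands, so that the matches overlap. In Ccl9 it lay 35 bases before the start, with TATAAA at 92 bases, and in Ccr3 it lay at 179 bases. The TATAAA of Ccl8 and Cxcr4 lay 32 and 30 bases before the start. In Ccl9 and Cxcr4 it overlaps a match on the other strand.

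Cxcl12, the ligand of Cxcr4 that stromal cells make, was read by a pair of probes that went in opposite directions. The brighter one, for transcript variant 3 (chr6:117131227-117131286), was at 14.13, 14.68 and 14.95 in Ref, 13.63, 13.95 and 14.61 in HFoleic, and 13.73, 14.46 and 15.12 in HFepa. Its difference in HFoleic was -0.58 (SE 0.22, adjusted p = 0.0551 in limma) and was not called, though it passed without HFoleic mouse 1, Ref mouse 6, Ref mouse 7, HFepa mouse 1 or HFepa mouse 3 (0.0207 to 0.0414). The other, for transcript variant 1 (chr6:117125026-117125085), was at 10.32, 10.39 and 10.52 in Ref, 10.76, 11.18 and 11.79 in HFoleic, and 10.41, 10.49 and 11.18 in HFepa. Here HFoleic did not overlap Ref and rose 1.72-fold (0.78, SE 0.16, adjusted p = 0.0013). The probes lie 6141 bases apart on the plus strand of mm9, and their mean was positive in HFoleic (0.10). The first 30 bases of each probe are shown so that the transcript stretch behind each direction can be looked up.
Cxcl12 variant 1: gctgtaaacctcctaccgtatgtgggaatt
Cxcl12 variant 3: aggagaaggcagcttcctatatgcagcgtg
A statement on Cxcl12 as a whole therefore depends on which probe is read, and the opposite signs show unequal change of the probes only. The variant numbers are those of the probe descriptions, and whether each probe reads that variant alone was not tested.

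**Figure D4:**
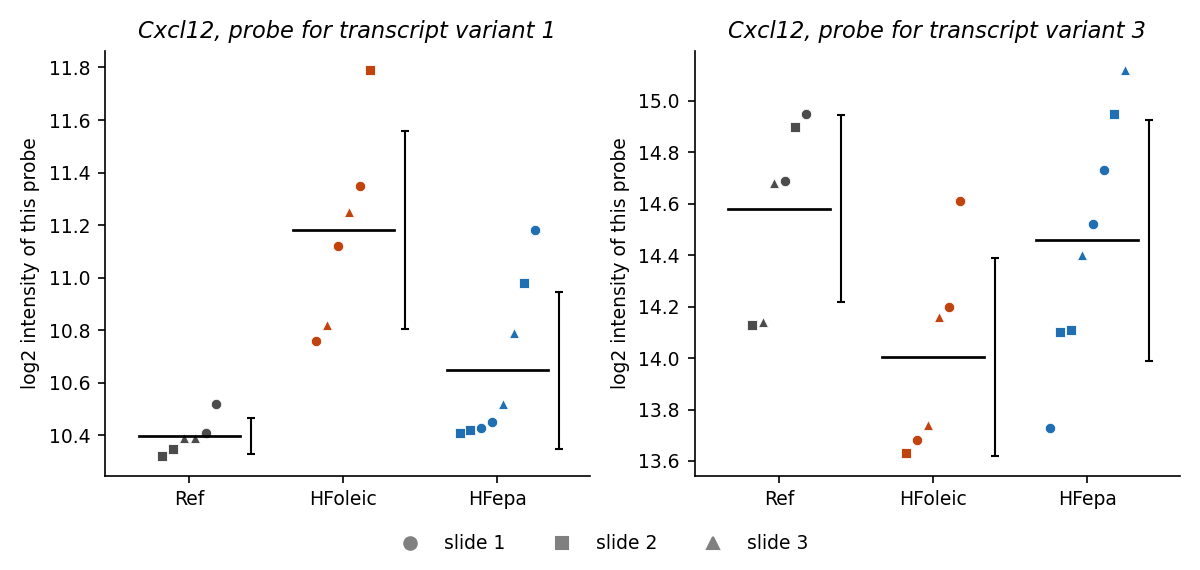
Log2 intensity (vertical axis) of the probes for Cxcl12 transcript variants 1 (left) and 3 (right) in each mouse, by group, with the symbol giving the slide, the line the mean and the bar the SD. By the variant 1 probe all HFoleic mice (10.76 to 11.79) lie above all Ref mice (10.32 to 10.52), and by the variant 3 probe they run from 13.63, below every Ref mouse, to 14.61.

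The reported probe of Cxcl11 was the brightest of the family (17.73 to 17.94 over all mice), and its level hardly moved. That probe (chr5:92788567-92788626, minus strand of mm9) shares a run of 20 bases with 22 of the 32851 promoter windows, 1 of 3 tested probes of the family that share any and the only one to share over 10. Its level therefore cannot be taken as that of Cxcl11 alone, and what else it reads was not tested. A second Cxcl11 probe shares none, and it was lower in HFoleic (-0.41, SE 0.13, adjusted p = 0.0177 in limma). Bases 15 to 44 of the bright probe and the first 30 of the second are shown so that the shared and the unshared reading can be told apart, and capitals mark bases in shared runs.
Cxcl11 bright probe: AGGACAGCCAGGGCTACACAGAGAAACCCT
Cxcl11 second probe: tatacaccttaatttcagcacttgaaaggc
The second probe of Cxcl10 was well above background in only 3 of 6 HFoleic mice, against 6 of 6 Ref mice, and had a difference of -0.38 (adjusted p = 0.0294 in limma) that rests partly on values near background, while its reported probe did not pass. Over all 59 tested probes of the family 27 passed in HFoleic, against 30.8% of all probes.

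In HFepa set against Ref, 1 of the 42 genes passed, with a background of 2.46%. None was lower (background 1.42%), and by the reported probes 0 genes had all HFepa mice above every Ref mouse (background 0.371%) or below every one (0.671%). The gene that passed was Cxcr4, higher 1.97-fold (0.98, 95% interval 0.49 to 1.47, adjusted p = 0.0363 in limma). It was positive on each slide (1.22, 0.69 and 1.03), but with the slides as blocks its call was lost (adjusted p = 0.0526 in limma), while Ccl11 then passed (0.34, adjusted p = 0.038). The call of this reported Cxcr4 probe was also lost without any 1 of Ref mice 2 to 6 or HFepa mice 1, 5, 6 and 7, and without the 5 arrays with testis or epididymis markers. The second Cxcr4 probe also passed (adjusted p = 0.0492 in limma), with every HFepa mouse above every Ref mouse. No Ref mouse was well above background for that second probe, so no fold is given. At an unadjusted p under 0.05 stood 9 genes with a positive difference (background 10%) and 4 with a negative one (background 11.5%). The positive ones besides Cxcr4 were Ccl2 (1.11, 95% interval 0.38 to 1.83), Ccl9 (0.93), Ccl7 (0.79), Ccl6 (0.70), Ccr2 (0.63), Ccr7 (0.63), Cxcl1 (0.47) and Ccl11 (0.35). Their adjusted p ran from 0.061 for Ccl11 to 0.169 for Ccl9. The negative ones were Cxcl13 (-1.23), Ccl12 (-0.88), Ccl25 (-0.34) and Ccr9 (-0.15), with adjusted p from 0.083 to 0.196. The median difference of the 42 genes was 0.00063, with 21 above 0 and 21 below. Without HFepa mouse 3, the mouse with the lowest Ccl2 of its group, 6 genes were called: Ccl2, Ccl7, Ccl11, Ccr2 and Cxcr4, which were higher, and Ccl25, which was lower. Without HFepa mouse 8 or HFepa mouse 4 the count was 2, with Ccr7 or Ccl11 beside Cxcr4, and without the arrays with testis or epididymis markers it was 0.

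Between HFepa and HFoleic, which ate the same diet and differ in lineage, 0 of 42 genes passed in limma, as did 0% of all tested genes and 0.00254% of all tested probes. In 0 genes did the groups lie apart, higher (background 0.152%) or lower (background 0.203%). By the reported probes the smallest adjusted p in limma was 0.124, for Cx3cr1. The second Cx3cr1 probe gave -0.66 (adjusted p = 0.117 in limma). At an unadjusted p under 0.05 were 12 genes by their reported probes. Of these 11 were lower in HFepa (background 10%) and 1, Cxcl12 by its variant 3 probe, was higher (background 10.8%). The variant 1 probe of Cxcl12 went the other way (-0.53, adjusted p = 0.118 in limma), and the mean of its probes was -0.037. Among the 11 were Ccl2 (-1.16, 95% interval -1.88 to -0.43), Cx3cr1 (-0.93, -1.50 to -0.35), Ccl9 (-0.91), Ccr2 (-0.76, -1.25 to -0.28), Ccl3 (-0.73), Ccl7 (-0.59), Ccl4 (-0.55), Ccr3 (-0.34), Cxcl16 (-0.33) and Xcl1 (-0.29). For these genes the intervals do not show that the groups were alike, and the adjusted values do not show that they differed. Other genes lay close together: Cxcr4 differed by -0.064 (95% interval -0.56 to 0.43), Cxcl1 by -0.091 (-0.43 to 0.25) and Ccl11 by -0.093 (-0.30 to 0.11). Without HFepa mouse 1 the count called was 7, all lower in HFepa (among them Ccl2, Ccl3, Ccl9, Ccr2, Ccr3 and Cx3cr1, adjusted p 0.0289 to 0.0375), without HFoleic mouse 1 it was 3 (Ccl2 and Cx3cr1 among them), without the arrays with testis or epididymis markers it was 0, and a fit with the slides as blocks called 1 gene, Ccl2 (-1.24, adjusted p = 0.048 in limma).

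For the 17 genes that rose in HFoleic, the position of each mouse is a description, since the genes were chosen for that contrast. HFoleic mice exceeded every Ref mouse in 9 to 17 of them and HFepa mice in 2 to 16. HFepa mice 1 and 6 did so in 16 and 14 genes, mouse 7 in 10, mouse 5 in 8, and the remaining 4 in 2 to 6. HFoleic mouse 1 was the lowest of its group with 9. Markers of lipid-associated macrophages, the cells around dying adipocytes, had a list mean of 9.73 to 10.72 in Ref, 12.33 to 13.86 in HFoleic and 10.18 to 14.22 in HFepa. The highest HFepa means were those of mice 1 (14.22) and 6 (13.46), and the lowest HFoleic mean was that of mouse 1 (12.33). The order was not the same throughout: HFepa mouse 5, with 8 genes, had a list mean of 10.36 within the Ref range, HFepa mouse 4, with 4 genes, had 11.78, and HFoleic mouse 4, with 13 genes, had the highest mean of its group (13.86). The part of these cells in the chemokine values was not tested.

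**Figure D5:**
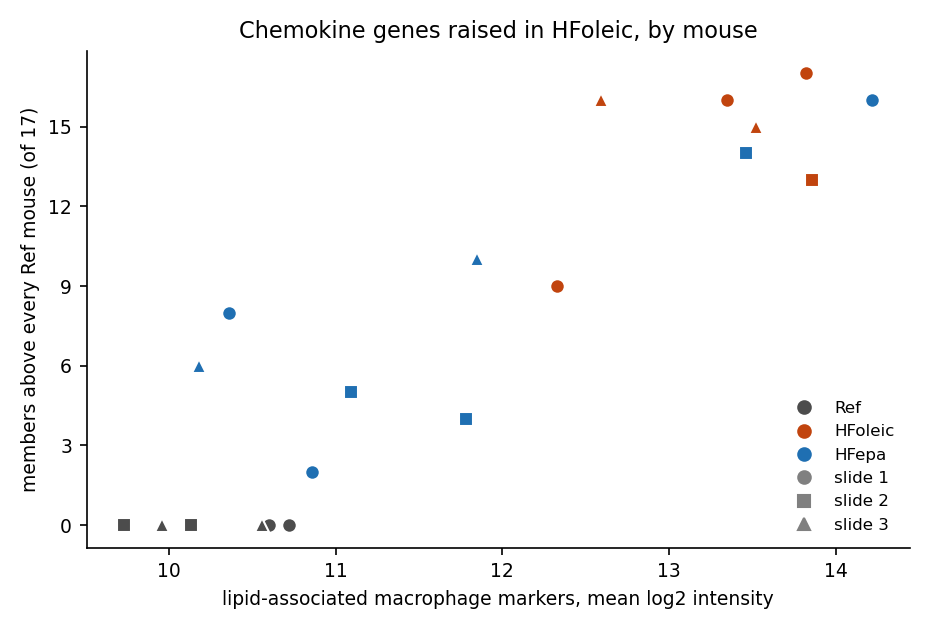
Number of the 17 chemokine genes that rose in HFoleic for which a mouse lay above every Ref mouse (vertical axis), against its mean log2 intensity of lipid-associated macrophage markers (horizontal axis), with colour for group and symbol for slide. HFepa mice 1 and 6 (16 and 14 genes) lie among HFoleic, and the other HFepa mice have 2 to 10 genes, while Ref mice are at 0 by construction.

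Other cell type markers are given beside the members for the same reason. Over all tested genes 15.2% were called higher in HFoleic and 16.7% lower, and short lists with few called genes lie near these shares. In HFoleic 5 of 8 macrophage markers were higher and 1 lower (Adgre1 2.27, Cd68 2.41), with list means of 10.47 to 10.97 in Ref, 11.23 to 12.11 in HFoleic and 10.38 to 11.86 in HFepa. Of 6 lipid-associated macrophage markers 5 were higher (Gpnmb 4.89, Atp6v0d2 4.66, Trem2 4.22), and of 6 dendritic cell markers 4 were higher and 1 lower (Itgax 3.16, Flt3 1.00). Of 5 monocyte markers 2 were higher (Treml4 1.09) and 3 were not called, with a median difference of 0.015 over the list. The T cell and B cell lists had 0 called of 6 and 5, mast cells, mesothelial cells, endothelium, lymphatic endothelium and liver 0 of 5 each, and epididymis 0 of 4. Natural killer cells had 2 of 4 higher, eosinophils 1 of 3 (Siglecf 1.39), fibroblasts 2 of 6, and neutrophils 1 higher and 1 lower of 6. Adipocytes had 2 of 6 lower (Lipe -1.19, Pnpla2 -0.42), and testis 1 of 4 lower. In both comparisons with HFepa 0 markers of any list passed. Their part in the chemokine differences was not tested.

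Downstream of the receptors, 30 of 66 listed genes of chemokine receptor signalling rose in HFoleic and 6 fell, against backgrounds of 15.2% and 16.7%. Those with the smallest p were Cdc42, a GTPase of cell polarity (0.63, adjusted p = 0.000423), Vav3, an exchange factor for Rac (0.81), the Src family kinase Lyn (0.78) and the adhesion kinase Ptk2b (0.68). In HFepa 4 of the 66 rose against Ref, where 1.03% of all tested genes were called higher, including Vav3 (0.58, adjusted p = 0.0304) and Lyn (0.51, adjusted p = 0.0498 in limma). Among molecules by which leukocytes adhere once a chemokine has activated them, 6 of 12 rose and 1 fell in HFoleic, with the beta-2 integrin chain Itgb2 at 2.67, the selectin ligand Selplg at 1.64 and the integrin chain Itga4 at 1.22. Of 9 proteases that cut chemokines 5 rose and none fell, led by the macrophage elastase Mmp12 (5.24, SE 0.92, adjusted p = 0.000677 in limma) and followed by Mmp13 (0.86) and Adam10 (0.31), which sheds Cx3cl1 and Cxcl16 from membranes. Of 7 atypical receptors and chemokines with other names, the scavenging receptor Ackr1 of venules rose (0.64, adjusted p = 0.0141) and the platelet chemokine Ppbp fell by 0.99 (adjusted p = 0.00148). None of the adhesion, protease or atypical receptor genes passed in HFepa against Ref.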

How the data were processed

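Visceral adipose tissue of 20 mice was measured on 1-colour Agilent arrays with 1 array per mouse, so that replicates are separate animals. The authors extracted the spot intensities with Agilent Feature Extraction 10.10.1.1, and the median intensities as deposited are linear and not normalised. The authors also deposited log2 values made by filtering and quantile normalisation, used here only as an alternative; they hold the reported probe of 41 of the 42 genes (not Ccl25). The deposited flags for spots above background and for outliers, coded 0 or 1, served as filters.

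Of 62976 spots, 59305 are not controls. Marked spots were set missing (24 values remained missing after averaging), and probes well above background on 6 or more arrays were kept (39390). Log2 of the medians, without background correction, was quantile normalised, and spots of a probe were averaged. All 20 arrays entered 1 fit of group means in limma 3.58.1 (lmFit, eBayes) in R 4.3.3 with data.table version 1.17.8, and p-values were adjusted by Benjamini-Hochberg over all tested probes at 0.05. Fold changes are 2 to the log2 difference. A gene is reported by its tested probe of highest mean. Intervals are 95%. Sequences were searched with Python 3.11.15, and matplotlib 3.10.9 drew the plots. The limma fit was tested on simulated log2 values with known changes. The steps before the fit and the sequence search were not part of that test.

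The members and lists were chosen with earlier results of these data known. Values are given in full for the genes called in any comparison (the 14 of smallest p in HFoleic against Ref), the 3 brightest ligands and receptors, and 7 ligand and receptor pairs; of the lists, the genes of smallest p are named. The 3 slides come from the array headers, and the labels give all arrays 1 wash batch. Alternatives were the processed signal minus its 75th percentile, normexp with an offset of 50, median centring, the authors' values, other filters, blocks for the slide or the replicate number, weights for arrays, a trend with intensity, the compared groups only, the mean of all probes, and each mouse left out. The values of 1 receptor, which is part of the counts, are not reported here.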

Additional observations from a re-analysis of the deposited data

Results flagged for a closer look

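In 6 of the 126 sets of values (42 genes in 3 groups), the mouse at one end lay far from the rest of its group, as the gap to its nearest neighbour divided by the range of the group. Chance gives about 1 in 20 such sets. In Ref mouse 5, Ccl3 was 6.85 with the next mouse at 5.88 (gap over range 0.882), and Ccl4 was 7.72 with the next at 6.85 (0.674). In HFoleic mouse 5, Ccl28 was 9.33 with the next at 7.07 (0.713), and Cx3cl1 was 10.21 with the next at 9.60 (0.709). In HFepa mouse 8, Ccl8 was 8.61, below the next at 10.32 (0.541). In HFepa mouse 6, Ccr10 was 6.19 with the next at 5.91 (0.56).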

How the results depend on the processing

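Genes called numbered 18 in HFoleic against Ref (17 higher, 1 lower), 1 in HFepa against Ref and 0 between the high-fat groups. With 1 mouse left out in turn, the first comparison gave 14 (without HFoleic mouse 6) to 22 (without HFoleic mouse 1) called, 13 to 18 higher and 1 to 4 lower (2 or more without HFoleic mouse 1 or 8, Ref mouse 5, 6 or 7, or HFepa mouse 1 or 3); HFepa against Ref gave 0 to 6 called, 0 to 5 higher and 0 to 1 lower, the most without HFepa mouse 3; and HFepa against HFoleic gave 0 to 7, 0 higher and 0 to 7 lower, the 7 without HFepa mouse 1, with 3 without HFoleic mouse 1. Genes lower in HFoleic numbered 5 with the processed signal, 5 with array weights, 4 with median centring, 3 with the mean of all probes, 2 with the compared groups only and 0 with the authors' values, which lack the Ccl25 probe that was called lower. HFepa against Ref gave 2 called with normexp (1 of them lower), 2 with array weights (2 higher) and 0 with the compared groups only (0 higher). HFepa against HFoleic gave 8 with array weights (8 lower) and 1 with the slide as a block (1 lower). Leaving out the arrays with testis or epididymis markers, chosen after seeing the data, gave 11 higher in HFoleic and 0 called (0 higher) in HFepa against Ref. The cause of the other shifts was not tested.

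Of 16 pairs of mice with equal replicate number 5 correlated above 0.1 (-0.587 to 0.559). Pairs of unequal number were not compared, so this does not settle whether the numbers pair the mice. The paper states that HFoleic and HFepa mice were matched for body weight. With the replicate block, 12 genes were called in HFoleic against Ref (11 higher), without Ccl3, Ccl4, Ccr3, Cx3cr1, Cxcl1 and Xcl1, and 0 (0 higher) in HFepa against Ref. Of the single gene values in the alternatives with no single mouse left out, 335 of 363 kept direction and side in HFoleic against Ref. The counts were 348 of 363 in HFepa against Ref and 350 of 363 in HFepa against HFoleic. Almost no gene was called in the comparisons with HFepa, so keeping the side there mostly means staying not called.

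Values that turned sign had not been called in that comparison. Between the high-fat groups, Ccl19 became -0.20 (replicate block) and -0.062 (without the testis or epididymis arrays), and lay between -0.045 and 0.28 with 1 mouse left out; Cxcl11 lay between -0.0060 and 0.02, and Cxcr4 between -0.22 and 0.033, with 0.11 without those arrays. In HFepa against Ref, Ccl19 lay between -0.35 and 0.026; Cx3cr1 became 0.020 (replicate block), 0.042 (array weights) and 0.21 (without those arrays) and lay between -0.18 and 0.075; Cxcl11 became 0.0034 (authors' values) and 0.0058 (without those arrays) and lay between -0.032 and 0.0080; and Cxcr6 became 0.0076 (mean of all probes) and 0.049 (without those arrays) and lay between -0.099 and 0.052. In HFoleic against Ref, Ccl19 became 0.18 (replicate block) and Cxcl11 lay between -0.037 and 0.0024. With the mean of all probes Cxcl12 became -0.037, 0.064 and 0.10 in HFepa against HFoleic, HFepa against Ref and HFoleic against Ref.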

Other observations

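Ccl28, a mucosal ligand of Ccr10 and Ccr3, was at 8.99 to 9.96 in the 4 mice with the highest testis markers (list means 8.10 to 9.06: Ref mice 3 and 6, HFoleic mouse 5 and HFepa mouse 4). In the other 16 mice, where the testis list was at most 6.60, Ccl28 was at 5.83 to 7.82. The part of testis RNA in the Ccl28 values was not tested.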
